A study of Mus musculus with 2 samples.

Results

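The tallest CTCF summits of mouse embryonic stem cells (ESCs) were the 638 summits on chromosomes 1 to 19 whose deposited height reached 30, out of 33788 summits in all and 33207 on these chromosomes that could be chosen. A summit is the position inside a ChIP-seq peak where most sequenced fragments overlap, and its height is the number of fragments that overlap there. Of 650 deposited summits of this height, 9 were left out because they lie in a stretch of chromosome 8 around Ctcf where the control library is raised too, 2 because they lie on chromosome X and 1 because it lies on unplaced sequence. The height of the CTCF library thus chose the sites, so that heights, CTCF tags, peak scores and ratios of CTCF to IgG at these summits are descriptions and carry no test. Gene context, sequence and motifs were not used in the choice.

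In these R1/E ESCs, CTCF bore a LAP tag with GFP in it and was expressed from a BAC, a large genomic clone with the CTCF gene that had been stably integrated. Clones with GFP were selected and sorted, so the library reports the tagged protein in this line. Cells were kept in medium with serum and LIF, fixed in formaldehyde at 1%, and their chromatin was sonicated to fragments of 500 bp on average before 5 µg of antibody was added. 1 library was made with a goat antibody to GFP and 1 with a goat IgG isotype control, which the labels also call input DNA, so there is no replicate of either and no difference between conditions was tested. Depth was 8391191 tags for CTCF and 7988889 for IgG, with a mean over chromosomes 1 to 19 of 1.03 and 0.972 tags per 301 bp. All intervals given here are 95% intervals and cover counting error, or the spread over sites, within these 2 libraries only.

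CTCF is a zinc finger protein that recognises a long and partly degenerate DNA motif with a particular orientation. It acts as an insulator between regulatory elements and genes, and it is known as the place where cohesin complexes are halted, which gives DNA loops between distant sites. The number of motifs at a site, and their direction, can be read from the sequence alone.

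The motifs at the tallest summits are shown first, because the results turn on how many of them a summit holds. The motif was found with a matrix of 19 positions at p 1e-05, and each sequence is printed in the motif's own orientation with the 19 matched bases in capitals and 5 bases on either side in lower case. Coordinates and sequence are those of mm9. These are the 10 tallest summits, leaving out 1 site without a motif and 1 whose sequence is not reported here, each named by the gene it lies in or by the nearest protein-coding gene start.
Abt1, chr13:23493672-23493700, minus strand: ggaagACGCCAGAAGAGGGCAGTAgatgc
Kif17, chr4:137838949-137838977, minus strand: tacacTGTCCACTAGGGGGAGACAtccac
C1qtnf9, chr14:61390200-61390228, minus strand: cttggCAGCCACTAGGGGGAGCAGgccac
C85492, chr9:121923442-121923470, minus strand: acgatGTGCCAGCAGAGGGAAGCAggcag
Rdh13, chr7:4378943-4378971, minus strand: ctcatCATCCTCTAGGTGGCAATGttagt
Pih1d1, chr7:52410495-52410523, plus strand: tgtggAGCCCAGAAGAGGGCGATGcagcc
Dnahc8, chr17:30790125-30790153, plus strand: cacagCAGCCAGAAGAGGGAGCTActggt
Gm15319, chr8:19982893-19982921, plus strand: ggtctTGGCCTGAAGAGGGCGCAGttgtt
The 3 of the 638 summits with the highest motif scores lie in Park2, upstream of Paqr9 and in Camta1. They show how close a site can come to the matrix without standing among the highest summits.
Park2, chr17:12229245-12229273, plus strand: ccctcTGGCCACCAGAGGGCGCTAaatcc
Paqr9, chr9:95441125-95441153, plus strand: tagagTGGCCACCAGGGGGCACTCtggag
Camta1, chr4:150469513-150469541, minus strand: tgtgaTGGCCAGAAGAGGGCGCTAtatct

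Heights among the chosen summits ran from 30 to 86 with a median of 33. Of the 638, 530 had a height of 30 to 39, 86 of 40 to 49 and 22 of 50 to 86. The remaining 32569 summits, called other summits here, ran from 6 to 29 with a median of 13. Just inside the threshold lay 104 summits of height 30, with a median of 35 CTCF and 1 IgG tags within 150 bp. Just outside lay 123 summits of height 29, with medians of 34 and 1. The threshold therefore cut a continuous range of heights and did not separate 2 kinds of site.

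**Figure D1:**
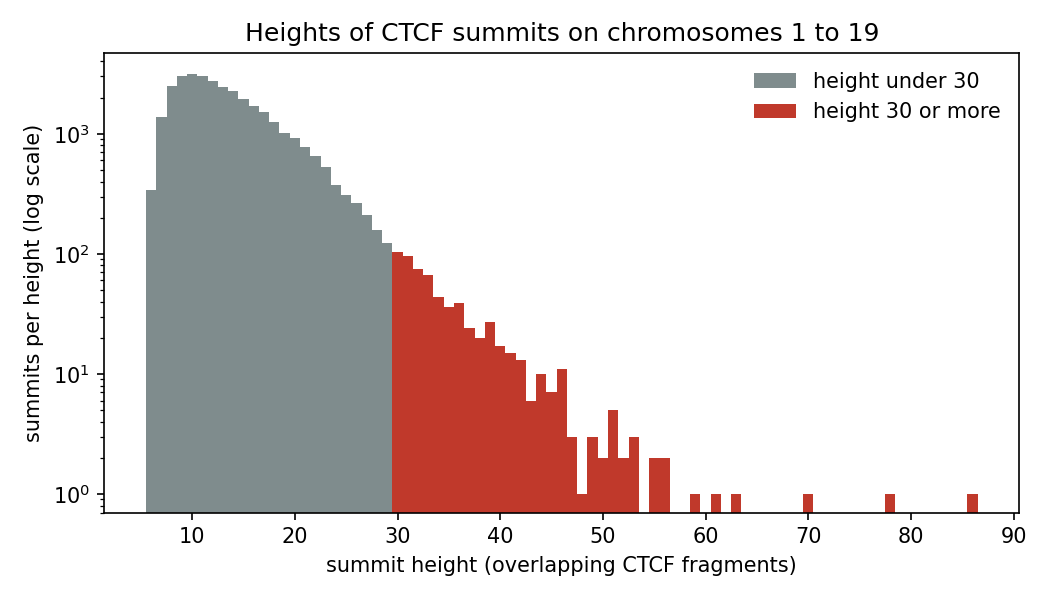
Number of CTCF summits (log axis) at each summit height, in overlapping fragments, on chromosomes 1 to 19 outside the stretch on chromosome 8. The 638 summits of height 30 or more (red) form the end of a range in which every height up to 53 is filled, and the highest has a height of 86.

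Within 150 bp of the tallest summits lay a median of 39 CTCF tags (lowest 30, quartiles 35 and 44, highest 107) and a median of 1 IgG tag (lowest 0, highest 54). At the other summits the medians were 14 CTCF tags and 1 IgG tag. IgG tags were absent at 188 of the 638 sites, 29.5%, against 36.1% of other summits. After scaling for depth, CTCF tags were 26.0 times as many as IgG tags at the tallest summits (24.4 to 27.8), and 13.98 times at other summits (13.8 to 14.1). The ratio was 27.9 at heights of 30 to 39, 28.996 at 40 to 49, and 11.5 at 50 to 86 (9.52 to 14.01), the last over 22 sites. That low value rests on 3 of them: it was 19.9 (15.5 to 26.1) without the site on chromosome 18 with 54 IgG tags, and 31.4 (22.6 to 45.1) without the Gm15319 pair as well, both left out after seeing the data. No IgG tag was found at 9 of the 22. A ratio of at least 10 with IgG counts under 3 set to 3 was met by 592 of the 638, 92.8%, against a background of 3.35% of all 33207 summits. That background follows from the choice, since a site needs at least 32 CTCF tags to meet it.

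The 2 libraries were not alike in their spread around the summits. CTCF tags at the tallest summits fell from 18.9 per 100 bp per summit within 75 bp to 8.03 at 75 to 150 bp, 3.52 at 150 to 300 bp and 0.983 at 1 to 2 kb. IgG tags went from 0.507 within 75 bp to 0.329 at 1 to 2 kb. The depth-scaled ratio was still 2.85 at 1000 to 2000 bp (2.75 to 2.95), against 2.22 around other summits. Within 300 bp of the tallest summits, 80.0% of CTCF tags lay on the side that points at the summit, plus strand tags to the left and minus strand tags to the right. The share was 73.6% at other summits, and since summits are placed where tags point, it is part of the choice. For IgG, whose tags do not enter the heights, the share was 54.6% (52.2 to 57.0) and 52.7%. The interval counts the tags of 1 site as independent. Without 31 sites with repeated words, described below, the IgG share at the other 607 tallest summits was 53.5% (50.9 to 56.0). For RAD21 the paper subtracted IgG before peaks were called, and it used the same peak settings for CTCF. IgG may thus have had a part in which peaks exist.

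**Figure D2:**
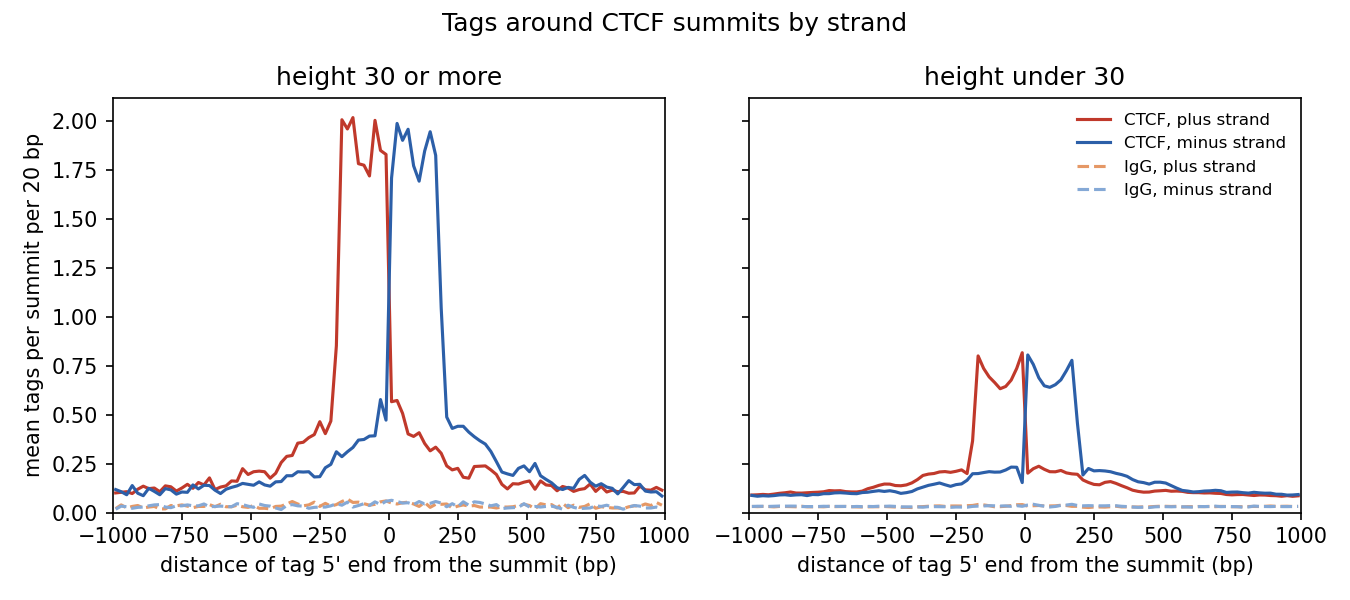
Mean number of tag 5′ ends per summit in bins of 20 bp (vertical axis) by distance from the summit in bp (horizontal axis), for each library and strand, at 638 summits of height 30 or more (left) and 32569 under 30 (right). CTCF tags on the plus strand lie left and those on the minus strand right of the summit within about 186 bp, the fragment length used, while both IgG strands stay near the bottom of the axis.

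A motif at p 1e-05 lay within 150 bp of 577 of the 638 tallest summits, 90.4% (87.9 to 92.5). Of all 33207 summits 73.5% had one, and of other summits 73.2% (72.7 to 73.7). At positions 2000 bp away the shares were 8.93% beside the tallest summits (6.96 to 11.4) and 5.89% beside other summits. The share with a motif was 54.2% at heights of 6 to 9, 72.9% at 10 to 14, 84.0% at 15 to 19 and 87.4% at 20 to 29. It was 90.0% at 30 to 39, 91.9% at 40 to 49 and 95.5% at 50 to 86, the last over 22 sites with an interval from 78.2 to 99.2%. Over the tallest summits the intervals of these bands overlap.

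The score of the best motif differed little. Its median was 19.6 bits over the 577 tallest summits with a motif (19.2 to 19.9) and 19.2 bits over other summits with one (19.1 to 19.2). Among the tallest it was 19.3 bits (18.8 to 19.7) with 1 motif, and 20.3 bits with 2 or more, where the best of several was taken. Across the 577 sites Spearman's rho of height and motif score was 0.05. The sites share 1 library, and the value is a description. The 3 highest scores of 25.8, 25.4 and 25.3 bits belonged to summits of height 39, 31 and 39. The first lies in an intron of Park2, the gene of the ubiquitin ligase parkin, with 42 CTCF tags and 1 IgG tag. The site between genes 19134 bp upstream of Paqr9, a membrane receptor gene, had 39 and 2 tags. That in an intron of Camta1, a calmodulin-binding transcription activator, had 45 and 2.

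The number of motifs differed by a larger factor than the share with a motif. Of the 638 tallest summits 168 had 2 or more motifs that do not overlap within 150 bp, 26.3% (23.1 to 29.9), against a background of 3.31% of all summits and 2.86% of other summits (2.68 to 3.05). Positions 2000 bp away held 2 or more motifs beside 3 of the 638 tallest summits, 0.470%, and 0.154% of other summits. The share was 1.65% at heights of 6 to 9, 2.17% at 10 to 14, 3.49% at 15 to 19 and 5.96% at 20 to 29. It was 22.3% (18.9 to 26.0) at 30 to 39 and 48.8% (38.6 to 59.2) at 40 to 49. At 50 to 86 it was 36.4%, with an interval from 19.7 to 57.0% over 22 sites. The intervals of the summits next to the threshold overlapped, with 15.4% at height 30 (9.70 to 23.5) and 16.3% at height 29 (10.8 to 23.8).

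**Figure D3:**
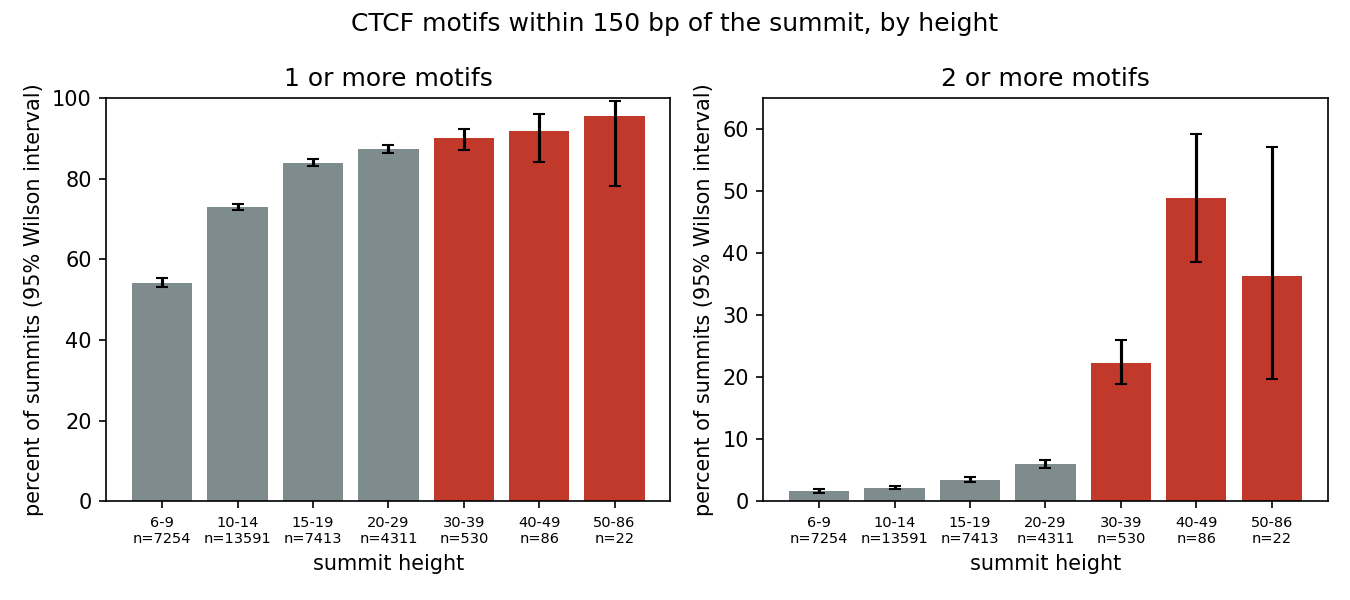
Percent of summits with 1 or more (left) and 2 or more (right) CTCF motifs at p 1e-05 within 150 bp, by summit height, with 95% Wilson intervals and the number of summits under each bar. The first share goes from 54.2 to 95.5%, and the second from 1.65% to 48.8% at heights of 40 to 49, with red bars for the tallest summits.

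The motifs were also counted in other ways, chosen after the first count was seen. At p 1e-04, 44.4% of the tallest and 15.9% of other summits had 2 or more motifs, and at p 1e-06 the shares were 11.6% and 0.786%. Within 250 bp they were 30.1% and 4.92%. A copied stretch of DNA can hold the same motif several times. At 31 of the tallest summits over 10% of the 32-base words of their 301 bp occurred more than once in the genome. Copies within the same 301 bp count too. Without these 31 sites the share was 25.9% of 607. Only exact words were counted, so copies that have come to differ remain among the 607. The Kif17 site had 0% repeated words, although its 2 motifs, printed below, lie in stretches that look alike. The part of such copies in the share was not tested. In all, 61 of the tallest summits had no motif, 409 had 1, 157 had 2, 7 had 3, 1 had 4, 2 had 5 and 1 had 7.

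The spacing of the motifs fell into 2 ranges. Among the 176 tallest summits with exactly 2 motifs within 250 bp, 36 pairs had their centres 40 to 60 bp apart and 21 were 60 to 80 bp apart. Only 2 lay at 140 to 160 bp and 1 at 160 to 180 bp. Then 19 lay at 200 to 220 bp and 23 at 220 to 240 bp. Divided at 160 bp, a value set after the spacings were seen, 98 pairs were close, with a median spacing of 64 bp (quartiles 52 and 90.8), and 78 were wide, with a median of 234 bp (quartiles 215 and 252). At other summits the bins from 120 to 200 bp held 2.36 to 2.92 pairs per 1000 summits, against 5.31 at 40 to 60 bp and 4.85 at 200 to 220 bp, so the gap was shallower over all of them. Summits of height 20 to 29 showed both ranges too. Their bins from 120 to 200 bp held 1.86 to 3.94 pairs per 1000, against 15.8 at 40 to 60 bp and 6.73 at 220 to 240 bp. At the tallest summits the 40 to 60 bp bin held 56.4 pairs per 1000 and the 160 to 180 bp bin 1.57.

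**Figure D4:**
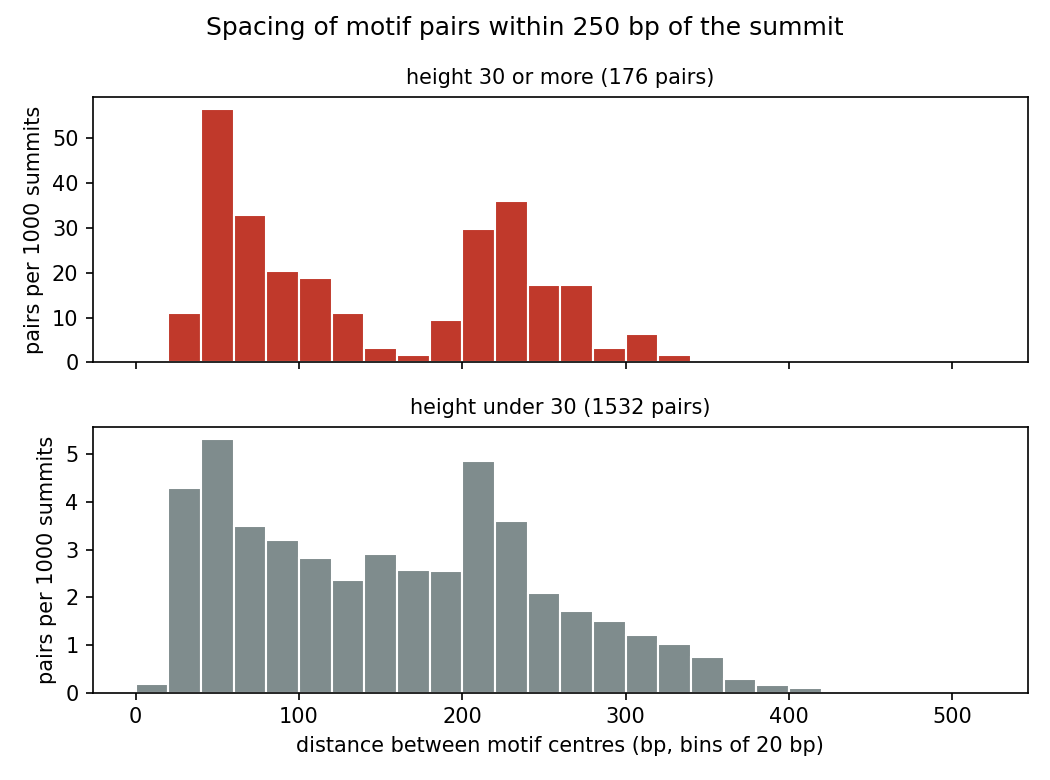
Distance between the centres of the 2 motifs, in bins of 20 bp (horizontal axis), at summits with exactly 2 motifs within 250 bp, given as pairs per 1000 summits (vertical axis, with a scale of its own in each panel). The 176 pairs at summits of height 30 or more (top) gather at 40 to 60 bp and at 220 to 240 bp with few between. The 1532 pairs at lower summits of all heights together (bottom) fill more of the space between.

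The summit lay near the middle of the wide pairs. At 77 of the 78 wide pairs of the tallest summits it was between the 2 motif centres, with a median of 17 bp from the midpoint, and at 576 of 722 wide pairs of other summits, with a median of 57.2 bp. Pairs over 250 bp apart must have the summit between them, because each motif was sought within that distance. Of the 98 close pairs the summit was between the motifs at 37, with a median of 48 bp from the midpoint. The 2 motifs pointed the same way in 66 of the 98 close pairs, 67.3% (57.6 to 75.8), and in 41 of the 78 wide pairs, 52.6% (41.6 to 63.3). At other summits these shares were 52.5% (49.03 to 55.9) and 59.8% (56.2 to 63.3). Among the other pairs of the tallest summits, 35 faced each other and 34 pointed apart.

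The sequences of 3 close and 2 wide pairs show both ranges. They are the tallest such summits outside a UTR for which a sequence is given, picked after their values were seen, and are printed on the plus strand of mm9 with both motifs in capitals and 5 bases beyond them.
Kif17, chr4:137838949-137839019: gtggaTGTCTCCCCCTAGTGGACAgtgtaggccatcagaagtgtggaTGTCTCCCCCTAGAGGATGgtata
Fam129b, chr2:32768108-32768172: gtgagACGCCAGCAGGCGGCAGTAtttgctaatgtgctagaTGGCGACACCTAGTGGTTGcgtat
Xrcc6bp1, chr10:126356297-126356373: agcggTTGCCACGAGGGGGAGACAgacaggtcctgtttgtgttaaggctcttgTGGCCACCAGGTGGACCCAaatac
Dido1, chr2:180413371-180413622: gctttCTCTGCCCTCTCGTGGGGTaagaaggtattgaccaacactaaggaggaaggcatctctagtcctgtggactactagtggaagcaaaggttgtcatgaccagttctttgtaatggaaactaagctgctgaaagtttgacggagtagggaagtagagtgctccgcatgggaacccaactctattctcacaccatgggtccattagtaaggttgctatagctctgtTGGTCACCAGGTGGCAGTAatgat
Mtap, chr4:88775317-88775605: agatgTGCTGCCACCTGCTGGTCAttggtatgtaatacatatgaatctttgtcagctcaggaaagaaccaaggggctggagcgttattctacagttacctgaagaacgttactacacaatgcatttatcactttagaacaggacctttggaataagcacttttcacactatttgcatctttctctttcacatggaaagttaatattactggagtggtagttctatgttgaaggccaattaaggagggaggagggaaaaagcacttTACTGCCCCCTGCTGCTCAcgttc
In Kif17, a kinesin motor gene, the motif centres were 42 bp apart and both motifs were on the minus strand, with scores of 17.5 and 13.1 bits. In Fam129b they were 36 bp apart and faced each other, with 14.2 and 17.4 bits. The Xrcc6bp1 pair lay between genes, 48 bp apart, and both motifs were on the plus strand. In Dido1 the 2 motifs were 223 bp apart and pointed away from each other, with the summit 102 bp from one and 121 bp from the other. The motifs upstream of Mtap, a gene of methionine salvage, were 260 bp apart and both on the minus strand, with 23.5 and 17.8 bits and the summit 114 and 146 bp from them.

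Heights at these sites were 63 for Kif17, 53 for Dido1, 52 for Fam129b, 51 for Mtap and 48 for Xrcc6bp1. The Kif17 site had 68 CTCF and 5 IgG tags within 150 bp and the Dido1 site 57 and 0. The Fam129b site had 65 and 0, the Mtap site 52 and 3, and the Xrcc6bp1 site 53 and 4. At none of them was IgG above 5 tags.

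The tallest summits with 2 or more motifs, 168 in all, had a median of 39.5 CTCF tags within 150 bp (30 to 107), and the 409 with 1 motif a median of 39 (30 to 86). The ratio to IgG was 32.5 (28.3 to 37.5) and 26.4 (24.3 to 28.7). IgG did not rise above 5 tags at any of the 168. At 75 to 150 bp from the summit, sites with 2 or more motifs had 7.09 CTCF tags per 100 bp and sites with 1 motif 8.27, and at 150 to 300 bp the values were 4.44 and 3.18. The GC content of the 301 bp was 48.7% (47.8 to 49.8) at the median of the former and 45.8% (44.9 to 46.5) of the latter.

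Of the 11 summits with 3 or more motifs the highest of all is 1. It lies in an intron of Ctif, which codes for a translation initiation factor that works with the nuclear cap-binding complex, at position 75759677 of chromosome 18. It had a height of 86 and 7 motifs, with 107 CTCF tags and no IgG tag within 150 bp. Of its 32-base words 16.3% occurred more than once in the genome, copies within its own 301 bp included. The site 6349 bp upstream of Nab2, a corepressor of EGR transcription factors, had 5 motifs, a height of 51 and 64 CTCF tags against 0. It lies in a non-coding exon of Gm16230 inside Tmem194, with 36.3% repeated words. A site in an intron of Erc2, a gene of the presynaptic active zone, had 5 motifs at a height of 36, and one 10327 bp upstream of Uvrag, an autophagy gene, had 4 at a height of 46. The lowest of the 11 lay between genes, 13164 bp downstream of the start of Bcan, at a height of 30 with 3 motifs. Over 10% repeated words were found at 6 of the 11.

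Motif direction did not follow the chromosome or the gene. The best motif was on the plus strand at 286 of the 577 sites, 49.6% (45.5 to 53.6). Within genes it was on the strand of the gene at 130 of 265 sites, 49.1% (43.1 to 55.0). The median position of the summit was -21 bp relative to the motif centre (-25 to -14), where negative values are on the 5′ side of the motif as printed here. It was -13 bp for other summits (-14 to -12), but -23 bp (-25 to -21) for those of height 20 to 29. Motifs on the plus strand at the tallest summits gave -24 bp and those on the minus strand -15 bp, so the side went with the motif and not with the chromosome. With exactly 1 motif the median was -23 bp (-29 to -15). The summit was over 75 bp from the best motif at 188 sites, 32.6%. With 2 or more motifs the median distance regardless of side was 83 bp, and with 1 motif 38 bp.

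Inside the motif, with positions counted from 1 at its 5′ end as printed above, bases were close to those of other summits at the invariant positions. The C at position 5 was found at 99.8% of the tallest and 99.7% of other summits, the G at position 10 at 99.8% of both, and the G at position 13 at 99.7% of both. Only matches past the score threshold were read, and the matrix favours these bases, so such agreement is part of the search. The largest difference was at position 7, where C stood at 53.2% of the tallest summits (49.1 to 57.2) and 42.6% of others. At position 1, T stood at 43.5% (39.5 to 47.6) against 36.0%, and at position 12 G stood at 64.0% (59.95 to 67.8) against 69.9%. A CpG inside the motif, where the C can be methylated, was present at 263 of 577 sites, 45.6% (41.6 to 49.7), and 39.5% of others. It stood mostly at positions 15 and 16, with 36.9% of the tallest and 31.8% of other summits.

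In the 30 bases on the 5′ side of the motif, the largest differences were A at 11 bases before it, 51.6% against 44.2%, T at 14 bases, 45.9% against 39.1%, and C at 16 bases, 35.4% against 28.9%. In each case the commoner base was also the commonest at other summits. On the 3′ side G was less frequent in the first base after the motif, 34.0% against 42.2%, and C in the sixth, 44.4% against 50.95%. T in base 13 was more frequent, 32.8% against 25.8%. These 6 positions were taken as the largest of 60, and their intervals do not allow for that.

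The commonest core, bases 4 to 14 of the motif, was the same in 83 of the 577 sites and was picked out after the sequences were seen. It is present in the Abt1, Pih1d1, Dnahc8 and Camta1 motifs above, and 6 of the tallest summits shared a whole motif of 19 bases built on it.
Core of 83 sites: CCAGAAGAGGG
Motif of 6 sites: AGGCCAGAAGAGGGCATCA
The share with this core was 14.4% of the tallest summits with a motif (11.8 to 17.5) and 18.9% of other summits (18.4 to 19.4). It was 25.8% at heights of 6 to 9, 20.5% at 10 to 14, 15.4% at 15 to 19 and 13.4% at 20 to 29. It stood at 14.5% for 30 to 39, 11.4% for 40 to 49 and 23.8% for 50 to 86, the last over 21 sites (10.6 to 45.1), with intervals that overlap the band before. Of 577 best motifs 558 were different, and 12 were found at 2 or more sites, so that these sites share sequence. The 6 sites with 1 motif sequence lie near Gtf3c3, 1110037F02Rik, Serpinf1, Reln, Etv4 and Txndc16, on 5 chromosomes, at heights of 31 to 35.

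No motif at p 1e-05 was found at 61 of the tallest summits. Their median was 37 CTCF tags (31 to 95), which the choice by height fixed to be high, and 1 IgG tag. At p 1e-04, 97.0% of all 638 had a motif, so most of the 61 held a weaker match. Promoters took 8 of the 61, 13.1% (6.80 to 23.8), against 6.58% of all tallest summits. A site between genes 64139 bp upstream of Epcam, an epithelial adhesion gene expressed in ESCs, had a height of 42 with 45 CTCF tags and no IgG tag, and its best match scored 8.25 bits. The site in an intron of 4930509E16Rik, 1807 bp upstream of Rfx7, had a height of 41 with 46 CTCF tags against 1 and a best match of 12.5 bits.

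The highest summit without a motif stood apart. It lies between genes at position 3005848 of chromosome 18, 117617 bp downstream of the start of Vmn1r238, a vomeronasal receptor gene. The height was 78, the second of all, with 95 CTCF tags but also 54 IgG tags, a ratio of 1.67 (1.19 to 2.38). Its peak score of 80.51 was the lowest of the 638, whose median was 404. Of its CTCF tags 71.7% pointed at the summit (62.5 to 79.4), and of its 55 IgG tags within 300 bp 83.6% did (71.7 to 91.1). Of its 32-base words 10.7% occurred more than once in the genome.

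IgG exceeded 5 tags at 6 of the 638 sites, and all 6 were among the 31 with over 10% repeated words. A pair of sites 1865 bp apart in 2610005L07Rik on chromosome 8, whose nearest protein-coding gene is Gm15319, had 15 and 12 IgG tags against 70 and 59 CTCF tags, at 48.1 and 54.4% repeated words. A site near Gm6483 had 9 IgG and 51 CTCF tags at 67.8% repeated words. The site near Samd9l had 7 and 54, and that near Gm13145 had 6 and 33. Reads from copies that are alike, or copies that the reference lacks, cannot be told apart from binding at these positions, and their part in the heights was not tested. The 31 sites had a ratio of 10.3 (8.61 to 12.4), and the other 607 had 28.6 (26.6 to 30.7) with at most 5 IgG tags. Not all sites with repeated words had raised IgG, as the Ctif and Nab2 sites show. Whether the copies at those sites lie within the same 301 bp was not tested.

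**Figure D5:**
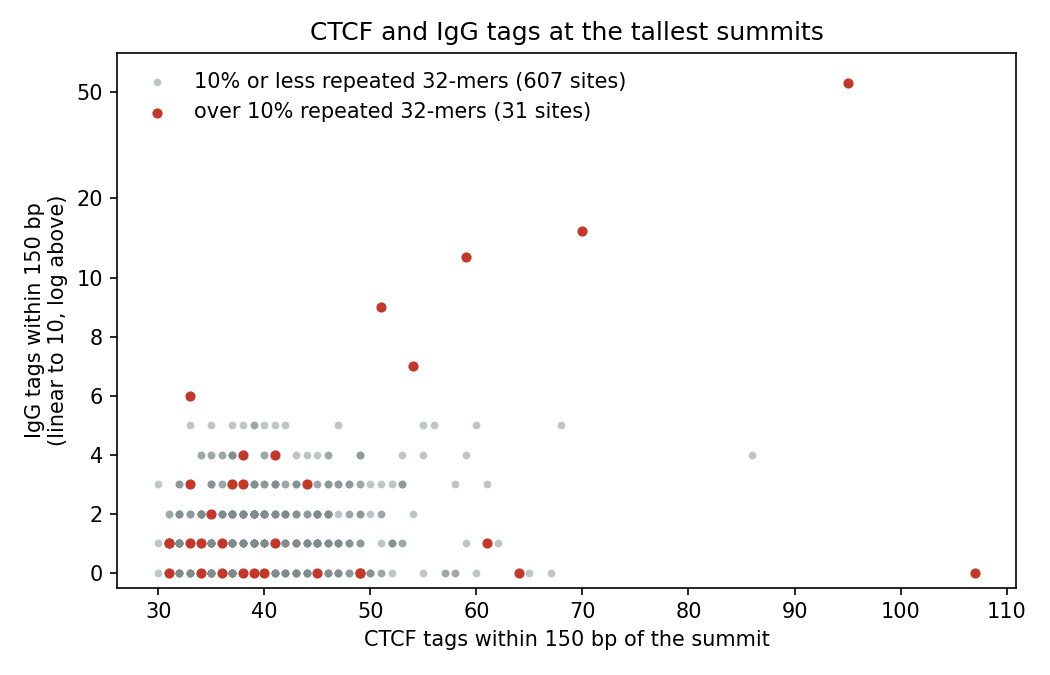
CTCF tags (horizontal axis) against IgG tags (vertical axis, linear to 10 and logarithmic above) within 150 bp of each of the 638 tallest summits, 1 point per site. The 6 sites above 5 IgG tags all belong to the 31 with over 10% repeated 32-base words (red), and 1 of them reaches 54 IgG tags.

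Introns and the space between genes held shares close to those of other summits. Between genes lay 286 of the 638, 44.8% (41.01 to 48.7), against 45.3% of other summits, and in introns 268, 42.0% (38.2 to 45.9), against 44.3%. Exons held 42, 6.58% (4.91 to 8.78), against 5.62%. Promoters, taken as the 1 kb upstream of a gene start, also held 42, 6.58% (4.91 to 8.78), against 4.81% of other summits (4.58 to 5.04). Of IgG tags, as a measure of where any tag falls, 54.7% lay between genes, 40.9% in introns, 3.23% in exons and 1.19% in promoters. By the part of the transcript at the summit itself, which also counts summits in promoters, 26 lay in a UTR, 4.08% (2.80 to 5.90) against 2.34% of other summits. Non-coding exons held 17, 2.66% against 1.501%, and coding exons 5, 0.784% (0.335 to 1.82) against 2.12%. At heights of 20 to 29 the shares were 2.64% for UTRs, 1.69% for non-coding exons and 1.14% for coding exons.

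The distance to the nearest protein-coding gene start had a median of 18572 bp (16839 to 20107), against 22813 bp for other summits. It was over 25 kb at 249 sites, 39.03% (35.3 to 42.9), against 47.6% of other summits and 71.1% of IgG tags. That share was 44.9% at heights of 20 to 29, and 39.8% at a height of 29. The nearest other summit was at a median of 7988 bp (6948 to 9444), against 11147 bp. Another summit lay within 10 kb of 356 of the 638, 55.8% (51.9 to 59.6), against 47.4% of other summits. Here the share was 49.8% at heights of 20 to 29, and 57.7% at a height of 29. The CpG ratio, observed over expected from the base content, was 0.246 at the median of 301 bp (0.230 to 0.265). Other summits had 0.21, and those of height 20 to 29 had 0.230. GC content was 47.2% (46.2 to 47.5) against 46.2%.

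Among the 10 tallest, the Abt1 site lies between genes, 22003 bp downstream of the start of Abt1, a gene for an activator of basal transcription, with a height of 70 and 86 CTCF against 4 IgG tags. The Kif17 site was next in height, at 63. C1qtnf9, which codes for a secreted relative of adiponectin, held an intronic summit of height 61 with 62 and 1 tags. The site 18447 bp upstream of C85492 had a height of 59 with 60 and 0 tags. The Rdh13 summit, in a UTR of a retinol dehydrogenase gene, had a height of 56 with 67 and 0 tags and a motif of 15.4 bits. In Dnahc8, an axonemal dynein heavy chain gene, the intronic summit at a height of 55 fell on the motif centre, with 61 and 3 tags. The Gm15319 site of height 55 is 1 of the pair with raised IgG. Between 1 and 15 IgG tags were seen at 5 of these 10 sites apart from the chromosome 18 site with 54, and 4 had none.

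The tallest summit within 1 kb of a protein-coding gene start lies 626 bp upstream of Aldh16a1, of the aldehyde dehydrogenase family, in an intron of Pih1d1, a gene of a chaperone complex. Its height was 56, with 58 CTCF and 0 IgG tags. Next came one 211 bp inside H2-DMa, whose product helps load peptides on MHC class II, with a height of 45 and 46 against 3 tags. The summit 971 bp upstream of RP23-3M10.7 had 43, with 52 against 1. In all, 36 of the 638 lay this close, 5.64% (4.10 to 7.71), against 5.09% of other summits. In coding exons the highest were in Dnahc8 with a height of 39, in Anapc2, a subunit of the anaphase-promoting complex, with 35, and in Gm9964 with 35. Their CTCF and IgG tags were 43 and 3, 39 and 2, and 45 and 0.

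Genes of the pluripotency network were nearest to 2 of the 638 sites, 0.313%, against 0.256% of all summits. The first lies 37946 bp upstream of Nanog, a homeobox gene that holds ESCs in self-renewal, at position 122619561 of chromosome 6, with a height of 49 and 59 against 4 tags. The other lies in an intron of Esrrb, an orphan nuclear receptor gene of the same network, with a height of 42 and 59 against 1. Of imprinted genes only Grb10, a growth-limiting adaptor gene, had one, in an intron with a height of 31 and 38 against 5 tags, 0.157% of the sites against 0.169% of all summits. The clustered protocadherins, which give neurons their identity through a choice of promoter, had 1, nearest to Pcdhgc5 with a height of 39 and 41 against 3, 0.157% of the sites against 0.217% of all summits.

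Olfactory receptor genes were nearest to 2 sites, Olfr161 and Olfr94, 0.313% against 0.446% of all summits. Ribosomal protein genes had 3, with Rps21 the highest at 33, 0.470% against 0.440%. Zinc finger genes named Zfp had 9, 1.41% against 1.45%, and the highest was 142 bp upstream of Zfp113 with a height of 39. Hox genes and the genes of cohesin and CTCF had none, which by the limit of 3 counts of 638 allows a share of up to 0.470% (Wilson upper bound 0.599%), and 0.0542% and 0.0693% of all summits lay nearest to them. No list differed in share from all summits beyond its interval. The 638 sites had 614 different nearest genes, and 22 genes had 2 or more.

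The tallest summits were spread over all 19 chromosomes. Their share of a chromosome's summits was lowest on chromosome 5, with 32 of 2481 or 1.29% (0.915 to 1.82), and highest on chromosome 17, with 43 of 1492 or 2.88% (2.15 to 3.86). Chromosome 11 held the most, 66 of 2741 or 2.41%. Neighbours among the 638 were far apart, with a median gap of 1.60 Mb, and 10 of 619 gaps were under 10 kb. The nearest pair lies 1250 bp apart near Rpap3, which codes for a partner of RNA polymerase II, on chromosome 15, with heights of 38 and 33. Dnahc8 was the nearest gene of 3 sites, and 2 of them, of heights 33 and 55, lay 4230 bp apart.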

How the data were processed

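ChIP-seq tags of 1 CTCF (GFP antibody) and 1 IgG library of R1/E ESCs were used. The authors deposited 1 line per aligned tag of 35 bp with a count of 1 (no position and strand is repeated), and peaks with a score and summits with the signal, the pile-up height, both called for CTCF with MACS 1.4 on mm9. The aligner is not given in the sources used here. The lowest peak score is 50.

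In Python 3.11.15 (matplotlib 3.10.9, numba 0.67.0, pandas 2.3.3, scipy 1.17.1, numpy 2.4.6) tags were moved by 93 bp (fragment length 186 bp, from the 1000 highest-scoring peaks) and counted within 150 bp. Recomputed heights of the chosen summits were 0 to 2 below the deposited ones. The motif matrix came from 192 CTCF motif sequences among the supplementary data, which the study listed at RAD21 sites, with a pseudocount of 1, background frequencies of 0.29 (A, T) and 0.21 (C, G), and an exact threshold of 13.0 bits. Of overlapping matches the best was kept. Context is from GENCODE M1 on the same build. A 32-base word was repeated if it occurs more than once in the genome on either strand, also within the same 301 bp. Shares carry Wilson intervals, ratios exact ones and medians order-statistic ones. Scripts were tested on simulated data.

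The sites and gene lists were chosen with earlier results of these data known. Named sites are the 10 tallest, the 3 tallest without a motif, with the most IgG tags, with the highest motif score, near a gene start and in coding exons, the tallest for each gene list and the nearest pair. Sites with several motifs, the spacing classes and the core were added after the data were seen. No set test was run.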

Additional observations from a re-analysis of the deposited data

How the results depend on the processing

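No paired analysis was possible because each antibody has a single library and no numbered replicates. Of 52 alternative values for 13 results, 23 stayed within the main interval or within 1.5 times the main count. The number of tallest summits was 1704 at a height of 25, 108 at 40 and 614 with recomputed heights. The ratio of 26.0 was 35.5 within 75 bp, 17.7 within 300 bp, 28.98 scaled by tags outside peaks, 22.8 with tags not moved, 20.9 at a height of 40 and 28.6 without sites with repeated words. At heights of 50 to 86 the ratio of 11.5 was 19.9 without the site with the most IgG tags and 31.4 without the 3 with the most. The share past the fold was 99.5% at a fold of 5 and 0.784% at 20. With IgG counts under 3 set to 3, a site at the upper quartile of 44 CTCF tags cannot reach a fold of 20. The low share at 20 thus follows from the floor and the depth. The share with a motif was 97.0% at p 1e-04, 71.2% at p 1e-06, 55.0% within 50 bp and 92.6% at a height of 40. The share with 2 or more motifs, all of whose alternatives were chosen after seeing the data, was 44.4% at p 1e-04, 11.6% at p 1e-06, 30.1% within 250 bp, 16.1% at a height of 25 and 46.3% at 40. The median distance from the motif was -11 bp at a height of 40. Intergenic sites were 36.2% with promoters of 5 kb and 48.7% with protein-coding genes only. Promoters were 18.8%, 4.86% and, at a height of 40, 9.26%. GC content was 48.5% within 50 bp and 46.0% within 500 bp. Apart from the floor at a fold of 20, the cause of these moves was not tested. Among the alternatives, other summits were recounted only for 2 or more motifs at p 1e-04, at p 1e-06 and within 250 bp, and their share was lower each time. With 1 library of each kind, differences between cultures cannot be seen.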
